A study of Mus musculus with 11 samples.

Results

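Cytochrome P450 genes of the mouse heart were followed across 3 groups of whole hearts. The set holds the protein-coding genes named Cyp with a family number and a subfamily letter, chosen by a summed raw count of 20 or more over all 11 libraries. That rule took 34 of the 99 genes so named, out of 54532 genes in the table. A further 28 Cyp genes had a summed count of 1 to 19, and 37 were at 0 in every library. Since that sum of measured counts selected the members, their being detected is no finding. At the edge of the rule, Cyp2a5 entered with 20 counts, and Cyp2a12 and Cyp11a1 stayed out with 18 counts each.

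All animals were C57BL/6 mice, the labels give a time of 26 weeks for every sample, and tissue was whole heart frozen on dry ice. The Chow group had 3 hearts, the HFD+STZ group 4 hearts and the HFD+STZ+AAV METTL3 group 4 hearts. The labels do not spell out HFD, STZ or AAV, and they give no promoter or serotype for the AAV. They also do not say whether the Chow and HFD+STZ mice received a control virus, nor give the age or sex of the mice. METTL3 is the enzyme that writes methyladenosine marks into messenger RNA, and the series is titled for diabetic cardiomyopathy. The third group is called METTL3 hearts from here on.

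Cytochromes P450 are haem-containing monooxygenases that insert an oxygen atom from molecular oxygen into lipids, sterols, retinoids, steroids and foreign compounds. Those of the endoplasmic reticulum take electrons from the reductase POR, and the mitochondrial ones from ferredoxin and its reductase. Several are transcribed under xenobiotic sensors: the aryl hydrocarbon receptor (AhR) drives Cyp1a1 and Cyp1b1, and the receptor CAR drives Cyp2b10 in liver. In the heart, P450 enzymes are studied mainly for the hydroxylation and epoxidation of arachidonic acid.

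Each library held 13900531 to 16952639 counts. Some libraries stood apart in ways that touch these genes. Chow replicate 3 had the fewest genes detected (15734 against 17317 to 20769 elsewhere) and the lowest mitochondrial share of counts (9.28% against 25.3 to 45.5%), and 15 of the 34 P450 genes were at 0 in it. The mitochondrial share also moved with the groups, at 9.28 to 27.4% in Chow, 28.6 to 32.5% in HFD+STZ and 37.7 to 45.5% in METTL3 hearts, with no overlap. Genes detected were 15734 to 20769 in Chow, 19814 to 20410 in HFD+STZ and 17317 to 19157 in METTL3 hearts. The part of these differences in the P450 results was not tested. HFD+STZ replicate 1 and METTL3 replicate 1 held the most counts of albumin, the main plasma protein made by liver, at 191 and 688 counts against 0 to 50 in the other libraries. Mettl3 itself was at 3.04 to 7.88 CPM (counts scaled to library size) in Chow, 4.39 to 7.82 CPM in HFD+STZ and 6.52 to 10.8 CPM in METTL3 hearts, so the groups overlapped. Whether these counts would include a METTL3 sequence carried by the AAV is not known here, so they cannot check the labels. Sample codes in the labels fall into separate ranges. Codes of 25 to 33 belong to HFD+STZ replicates 2 to 4 and METTL3 replicates 1 to 3, and codes of 78 to 98 to all other libraries, Chow included. What the codes stand for is not given.

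The sequences just before the start sites of 4 members are shown because 3 of them carry the changes described further on and Cyp1a1 is the classical AhR target beside them. They come from RefSeq on GRCm38.p6, run 5′ to 3′ on the gene's own strand, and stop before any annotated exon. Capitals mark matches to a GCGTG core of the AhR response element, an AGAACA glucocorticoid receptor half-site or a TATAAA box, where CACGC and TGTTCT are the first 2 of these read on the other strand. An AGGTCA nuclear receptor half-site was also searched for, on both strands.
Cyp2b10, chr7:25897408-25897619, plus strand: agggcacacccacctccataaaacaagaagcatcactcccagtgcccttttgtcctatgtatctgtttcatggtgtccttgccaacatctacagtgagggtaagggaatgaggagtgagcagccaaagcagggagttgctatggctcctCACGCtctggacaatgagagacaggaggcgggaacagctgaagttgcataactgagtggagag
Cyp4b1, chr4:115647724-115647971, minus strand: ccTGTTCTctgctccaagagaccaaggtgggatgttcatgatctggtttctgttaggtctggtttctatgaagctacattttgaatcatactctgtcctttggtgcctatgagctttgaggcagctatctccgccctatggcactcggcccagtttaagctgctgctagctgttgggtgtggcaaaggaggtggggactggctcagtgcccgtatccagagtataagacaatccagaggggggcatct
Cyp1b1, chr17:79715062-79715311, minus strand: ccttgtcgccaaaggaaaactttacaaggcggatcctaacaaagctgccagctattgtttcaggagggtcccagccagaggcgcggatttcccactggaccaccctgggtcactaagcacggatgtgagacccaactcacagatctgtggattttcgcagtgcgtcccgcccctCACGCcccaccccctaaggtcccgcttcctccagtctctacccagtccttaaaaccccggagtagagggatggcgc
Cyp1a1, chr9:57697363-57697612, plus strand: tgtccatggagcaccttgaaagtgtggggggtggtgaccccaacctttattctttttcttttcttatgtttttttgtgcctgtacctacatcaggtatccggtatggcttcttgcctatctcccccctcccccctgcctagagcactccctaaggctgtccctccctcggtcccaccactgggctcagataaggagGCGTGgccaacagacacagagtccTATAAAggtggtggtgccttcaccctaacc
In these windows, GCGTG lay at -101 in Cyp2b10, at -76 in Cyp1b1 and at -54 in Cyp1a1, counting the first matched base from the RefSeq start. Cyp2b10 had another GCGTG at -9, which falls in an annotated exon and is not printed. The Cyp1a1 window also held TATAAA at -30, and that of Cyp4b1 held AGAACA at -248. Such short matches are common: GCGTG occurred in 28.2% of 32851 RefSeq windows of 250 bases and in 10 of the 31 windows matched to 28 members. AGAACA occurred in 16.1% of all windows and 3 member windows, AGGTCA in 14.0% and 3, and TATAAA in 12.4% and 8. A match here is only a description of the letters.

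Cyp4b1, a hydroxylase of fatty acids that also activates some foreign compounds, was the highest P450 mRNA in 11 of 11 libraries. Levels between genes are compared as CPM per kb of the gene length given in the table. On that scale Cyp4b1 averaged 22.7 CPM per kb over the 11 libraries and made up 32.5% of the summed level of the 34 genes. Cyp27a1, the mitochondrial sterol 27-hydroxylase, averaged 8.40 CPM per kb and was second in 8 libraries. Behind it came Cyp20a1, an enzyme without a settled substrate, at 5.04 CPM per kb, Cyp2d22, a drug-metabolising enzyme, at 5.0, and Cyp1a1 at 4.92. These 3 could not be ordered, since their ranges over libraries were 1.5 to 7.35, 3.92 to 7.23 and 2.44 to 7.27 CPM per kb. Cyp1b1, which oxidises steroids, retinoids and polycyclic hydrocarbons, followed at 4.05 CPM per kb. That mean pools unlike groups: Cyp1b1 was at 1.54 CPM per kb in Chow, 4.28 in HFD+STZ and 5.70 in METTL3 hearts, and its rank over libraries ran from 2 to 12.

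The next levels were closely spaced. The epoxygenase Cyp2j6 averaged 2.53 CPM per kb, the fatty acid hydroxylase Cyp2u1 2.01, Cyp4f13 of the leukotriene and fatty acid hydroxylase subfamily 1.90, and Cyp2b10 1.89. The place of Cyp2b10 depends on the group, since it averaged 0.102 CPM per kb in Chow, 3.34 in HFD+STZ and 1.79 in METTL3 hearts, and its rank over libraries ran from 3 to 26. Cyp39a1, an oxysterol hydroxylase, averaged 1.88 CPM per kb. Cyp4f16, Cyp4v3, Cyp4f17, Cyp2e1 and Cyp26b1 averaged 1.61 to 1.10 CPM per kb. The remaining 18 members lay between 0.556 CPM per kb for Cyp2j9 and 0.0486 CPM per kb for Cyp2c29.

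**Figure D1:**
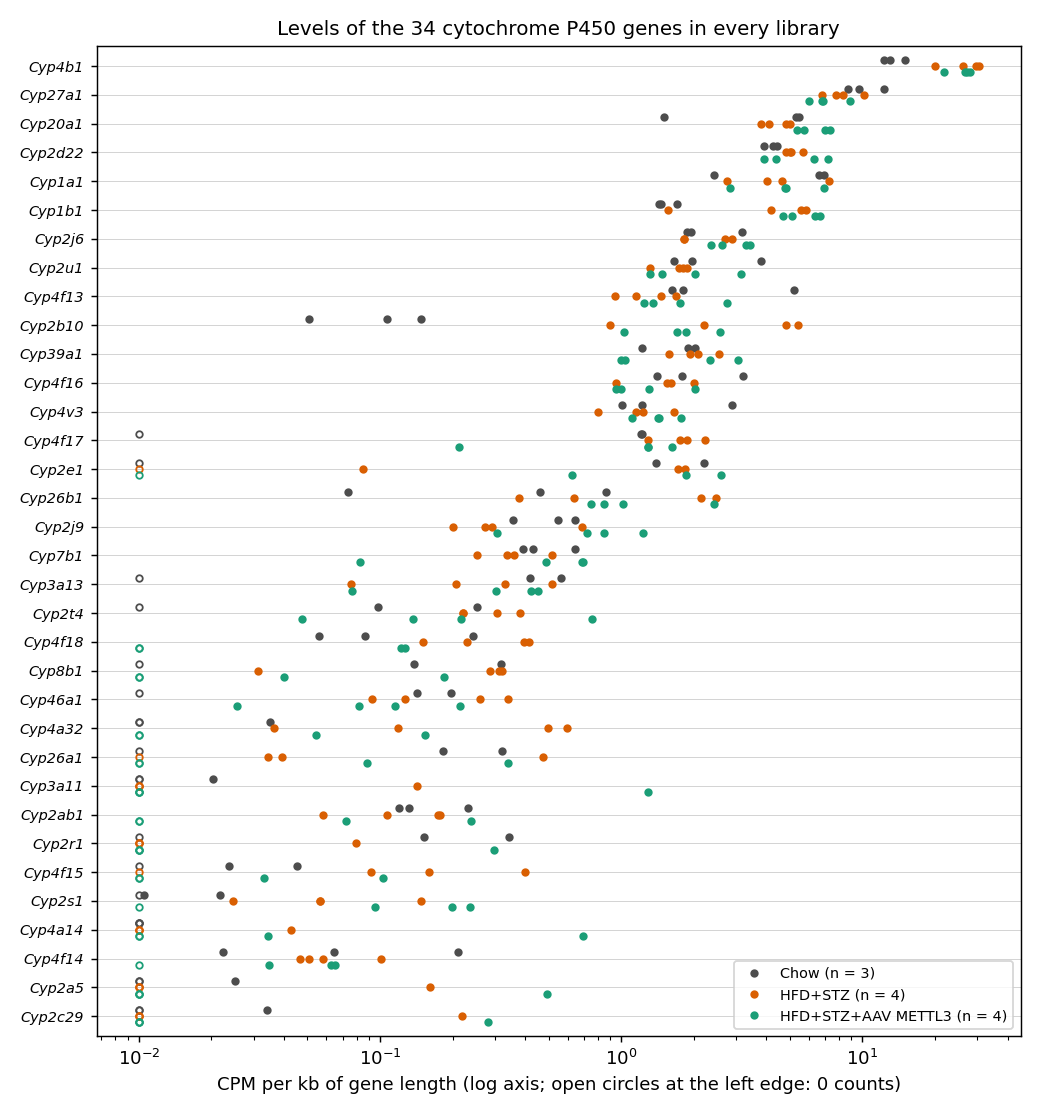
Level of each of the 34 P450 genes in every library, as CPM per kb of gene length on a log axis, with genes ordered by their mean and 1 point per library coloured by group. Open circles at the left edge are libraries with 0 counts. Cyp4b1 is highest in all 11 libraries, and genes with open circles are mostly in the lower part of the plot.

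By role, 13 fatty acid and eicosanoid enzymes made up 49.4% of the summed mean level, 10 genes of xenobiotic-metabolising families 25.2%, 5 sterol and bile acid enzymes 15.8%, 3 enzymes without a settled substrate 7.73%, and 3 retinoid and vitamin D enzymes 1.88%. The summed level of all members was 51.8, 56.1 and 63.5 CPM per kb in Chow, 63.7, 75.9, 81.5 and 74.2 in HFD+STZ, and 71.1, 82.7, 78.2 and 69.4 in METTL3 hearts. On this scale every library of the treated groups was above every Chow library, but HFD+STZ replicate 1 and Chow replicate 3 were nearly level. Summed as CPM without the division by length their order reversed, at 175 CPM in HFD+STZ replicate 1 and 188 CPM in Chow replicate 3. Cyp4b1 alone was 23.1 to 23.8% of the summed CPM per kb in Chow, 31.4 to 39.9% in HFD+STZ and 30.5 to 39.2% in METTL3 hearts. No test was made of these sums, since the members were chosen with earlier results known.

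Of the 34 members, 21 had enough counts to be tested with the other genes. The 13 left out were Cyp2t4, Cyp4f18, Cyp8b1, Cyp4a32, Cyp26a1, Cyp3a11, Cyp2ab1, Cyp2r1, Cyp4f15, Cyp4a14, Cyp4f14, Cyp2a5 and Cyp2c29. Against Chow, HFD+STZ hearts had 1 called member, Cyp2b10, which was higher. METTL3 hearts against Chow had 3, namely Cyp2b10, Cyp4b1 and Cyp1b1, all higher. No member was called between METTL3 and HFD+STZ hearts. Called means an adjusted p under 0.05 by edgeR's quasi-likelihood test over 14862 genes, and by that rule 0.168% of all genes were called for HFD+STZ against Chow (0.135% higher), 3.2% for METTL3 against Chow (1.82% higher) and 0.0% for METTL3 against HFD+STZ. The first 2 comparisons share their Chow libraries, so their calls are not independent.

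Cyp2b10, the barbiturate-inducible P450 of liver, was close to absent in Chow hearts and present in every treated heart. Its level was 0.311, 0.108 and 0.225 CPM in Chow replicates 1 to 3, from 6, 2 and 4 counts. In HFD+STZ hearts it was 1.90, 10.2, 4.67 and 11.4 CPM, from 34, 168, 67 and 188 counts. In METTL3 hearts it was 3.92, 2.17, 5.44 and 3.58 CPM, from 50, 26, 72 and 40 counts. The lowest treated heart was thus well above the highest Chow heart, and the HFD+STZ hearts varied most among themselves. The Chow counts alone were below the minimum of the selection rule, so Cyp2b10 entered the set through its treated hearts. In RNA of whole hearts, more RNA per cell and more cells of an expressing type cannot be told apart.

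Cyp2b10 rose in HFD+STZ against Chow by a log2 fold change of 4.98 (SE 0.71, 95% interval 3.46 to 6.51), or 31.6-fold, with an edgeR adjusted p of 0.0245. In METTL3 hearts it rose by 4.09 (SE 0.70, interval 2.58 to 5.59), or 17-fold, with an adjusted p of 0.0183. Between METTL3 and HFD+STZ hearts the log2 fold change was -0.90 (SE 0.49, interval -1.96 to 0.17, adjusted p 0.622), which did not pass and leaves a range from a large fall to a small rise. The size of both rises rests on 12 Chow counts in all. With HFD+STZ and Chow alone in the fit its adjusted p was 0.228, and it was 0.0835, 0.127, 0.0842, 0.0767 and 0.0537 without Chow replicate 1, Chow replicate 2, HFD+STZ replicate 2, HFD+STZ replicate 4 and METTL3 replicate 4 in turn. For METTL3 against Chow it was 0.0686 without Chow replicate 2 and 0.0559 without METTL3 replicate 4.

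The rise was also read beside the sample codes. Within codes 78 to 98, HFD+STZ replicate 1 at 1.90 CPM and METTL3 replicate 4 at 3.58 CPM were both above all 3 Chow hearts, with 1 heart per treated group and so no test. With the code range as a term in the fit, the log2 fold change of Cyp2b10 was 4.08 (adjusted p 0.590) for HFD+STZ and 3.36 (adjusted p 0.128) for METTL3 hearts against Chow. Within codes 25 to 33, METTL3 against HFD+STZ gave -1.20 (SE 0.39, adjusted p 0.168).

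The Cyp2b10 gene lies on the plus strand of chromosome 7 from 25897620 to 25926624 of mm10. Of its exonic stretches of 31 bases, 19.4% also occur in another gene, most often Cyp2b13, which was itself at 0 in every library. Cyp2b10 and Cyp4b1 are both known from lung, so lung markers were read beside them. Scgb1a1, the defining product of airway club cells, was at 0 in all 11 libraries, as were Sftpd, Scgb3a2, Bpifa1, Cldn18 and Nkx2-1. The 12 lung markers summed to 0.311 to 3.21 CPM in Chow, 0 to 1.52 CPM in HFD+STZ and 0.251 to 1.06 CPM in METTL3 hearts. Any part of lung tissue in the Cyp2b10 and Cyp4b1 values was not tested further.

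**Figure D2:**
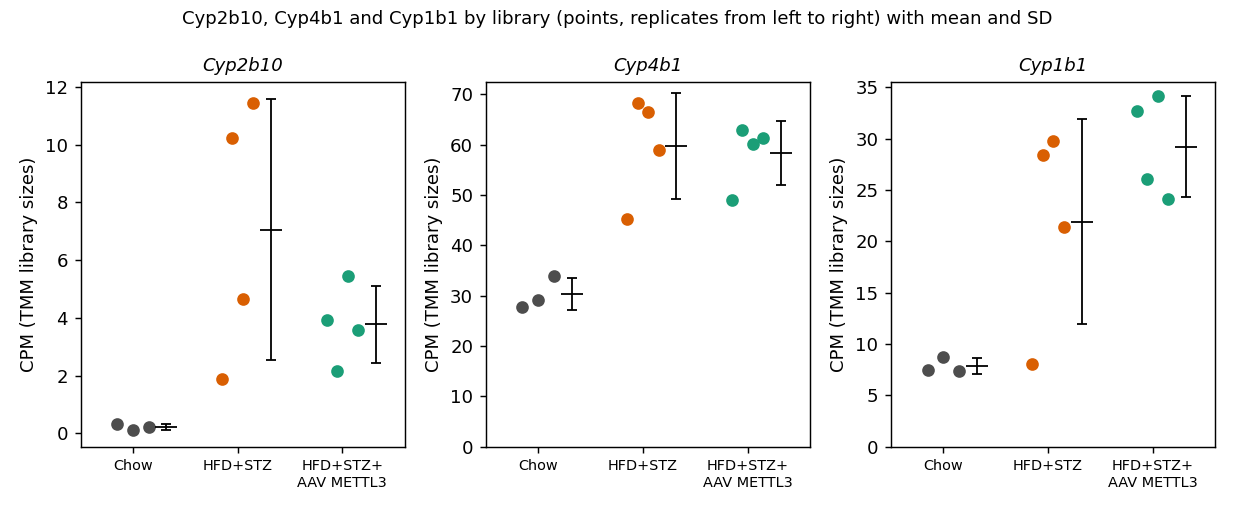
CPM of Cyp2b10, Cyp4b1 and Cyp1b1 in each library of the 3 groups (points, replicates from left to right), with the group mean and SD as a black bar to the right. Chow hearts lie below all treated hearts for Cyp2b10 and Cyp4b1, while HFD+STZ replicate 1 lies at the Chow level for Cyp1b1.

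Cyp4b1 was about 2 times as high in treated as in Chow hearts. It stood at 27.8, 29.2 and 33.9 CPM in Chow, 45.2, 68.3, 66.4 and 59.0 CPM in HFD+STZ, and 49.0, 62.8, 60.1 and 61.4 CPM in METTL3 hearts. All 8 treated hearts were above all 3 Chow hearts, and the treated groups lay over each other, each with its replicate 1 lowest. METTL3 against Chow gave a log2 fold change of 0.94 (SE 0.18), or 1.92-fold, with an edgeR adjusted p of 0.0255. HFD+STZ against Chow gave 0.98 (SE 0.18), or 1.97-fold, with an adjusted p of 0.05001, just outside the threshold. Between METTL3 and HFD+STZ hearts the difference was -0.03 (SE 0.16, interval -0.39 to 0.32).

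The Cyp4b1 call moved with single libraries. For HFD+STZ against Chow it passed without Chow replicate 3 (adjusted p 0.0193) and without HFD+STZ replicate 1 (0.00913). For METTL3 against Chow it missed without Chow replicate 2 (0.0767) and without METTL3 replicate 2, 3 or 4 (0.0537, 0.0722 and 0.0783), and with only these groups in the fit (0.0717). Within codes 78 to 98, HFD+STZ replicate 1 at 45.2 CPM and METTL3 replicate 4 at 61.4 CPM were above the highest Chow heart, and with the code range as a term the log2 fold changes were 0.82 (adjusted p 0.664) and 0.80 (0.174). The gene spans 115624725 to 115647723 on the minus strand of chromosome 4, and 11.7% of its 31-base stretches occur in another gene, mainly the pseudogene Cyp4b1-ps2.

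Cyp1b1 was higher in METTL3 than in Chow hearts and in 3 of 4 HFD+STZ hearts. Its level was 7.51, 8.76 and 7.37 CPM in Chow, 8.04, 28.5, 29.8 and 21.4 CPM in HFD+STZ, and 32.7, 26.1, 34.1 and 24.1 CPM in METTL3 hearts. HFD+STZ replicate 1 sat within the Chow range, and the other treated hearts did not come near it. METTL3 against Chow gave a log2 fold change of 1.89 (SE 0.36), or 3.71-fold, with an edgeR adjusted p of 0.0250. For HFD+STZ against Chow it was 1.47 (SE 0.36, adjusted p 0.135), which did not pass, and 1.75 (SE 0.21, adjusted p 0.00338) without HFD+STZ replicate 1. The difference between METTL3 and HFD+STZ hearts was 0.42 (SE 0.31, interval -0.26 to 1.09).

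HFD+STZ replicate 1 is the only HFD+STZ heart with a code of 78 to 98, the range of all Chow hearts. In that same range METTL3 replicate 4 stood at 24.1 CPM of Cyp1b1, above every Chow heart. With the code range as a term, the log2 fold change of Cyp1b1 was 0.64 (adjusted p 0.931) for HFD+STZ and 1.18 (0.174) for METTL3 hearts against Chow. The METTL3 call was also missed without Chow replicate 2 (0.0715) and without METTL3 replicate 1, 3 or 4 (0.0619, 0.0722 and 0.0676). Cyp1b1 lies on the minus strand of chromosome 17 from 79706953 to 79715041, and none of its 31-base stretches occur in another gene.

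Leaving out the 2 libraries with the most albumin counts together, an alternative chosen after seeing the data, gave 3 called members in HFD+STZ against Chow and 3 in METTL3 against Chow. Over all genes the calls moved from 25 to 145 in the first of these and from 475 to 104 in the second. Cyp2b10 then had log2 fold changes of 5.30 (adjusted p 0.00667) and 4.07 (0.0168), Cyp4b1 1.09 (0.0167) and 1.02 (0.0250), and Cyp1b1 1.75 (0.00904) and 1.83 (0.0123) in these comparisons. Without Chow replicate 3, 2 members were called for HFD+STZ (Cyp2b10 and Cyp4b1) and 3 for METTL3 hearts. Endothelial markers, 6 in number, summed to 885 to 1055 CPM in Chow, 788 to 1203 in HFD+STZ and 1038 to 1317 in METTL3 hearts. For 6 fibroblast markers the sums were 1134 to 1373, 771 to 1678 and 1063 to 1601 CPM. No marker of either list was at 0 in any library. The sums of other lists separated METTL3 from Chow hearts. Smooth muscle and pericyte markers, 6 in number, summed to 1145 to 1263 CPM in Chow, 894 to 1432 in HFD+STZ and 1392 to 1826 in METTL3 hearts. These 6 did not rise as a set, since their median log2 fold change for METTL3 against Chow was -0.09. At an edgeR unadjusted p under 0.05, 1 was higher and 1 lower. The sums of 6 cardiomyocyte markers were 25357 to 26406, 20368 to 30008 and 19826 to 22571 CPM. These markers did not fall as a set either, with a median log2 fold change of -0.13 for METTL3 against Chow. At an edgeR unadjusted p under 0.05, 1 of them was higher and 0 lower. The macrophage, adipocyte and lymphocyte sums were also lower in every METTL3 heart than in every Chow heart. Only 2 of the 6 adipocyte and 1 of the 6 lymphocyte markers had enough counts to be tested. The part of these cell types in the P450 results was not tested.

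Cyp1a1, the other AhR-driven member, showed no such difference. Its level was 6.79, 18.4 and 19.4 CPM in Chow, 20.3, 7.66, 11.2 and 12.9 CPM in HFD+STZ, and 13.5, 13.4, 19.4 and 7.89 CPM in METTL3 hearts. High and low hearts occurred in each group. The log2 fold change against Chow was -0.19 (SE 0.40, interval -1.05 to 0.68) for HFD+STZ and -0.13 (SE 0.40, interval -1.0 to 0.74) for METTL3 hearts, which does not show that the groups are alike. Among other xenobiotic-metabolising genes, Cyp2d22 was at 15.3, 17.3 and 16.7 CPM in Chow, 18.8, 22.1, 19.6 and 19.8 CPM in HFD+STZ, and 17.1, 28.2, 15.3 and 24.6 CPM in METTL3 hearts. Its HFD+STZ hearts were all above its Chow hearts, but the log2 fold change of 0.29 (SE 0.21, adjusted p 0.576) did not pass.

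Cyp2s1, an extrahepatic P450, had 0 to 2 counts in Chow, 2 to 12 in HFD+STZ and 0 to 13 in METTL3 hearts. Its log2 fold change for METTL3 against Chow was 3.42 (SE 1.25, adjusted p 0.137), and it shares exonic sequence with Gm26707 on the opposite strand. Cyp3a13 ranged from 0 to 1.66 CPM with no direction by group. Of the 7 tested members of xenobiotic-metabolising families, 1 was called higher in HFD+STZ and 2 in METTL3 hearts against Chow, none lower. These are the calls of Cyp2b10 and Cyp1b1 given above. Of all genes, 0.135% and 1.82% were called higher in these comparisons. The median log2 fold changes of the 7 were 0.29 and 0.37.

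The fatty acid and eicosanoid enzymes other than Cyp4b1 were not called in any comparison. Of the 8 tested, the log2 fold change for HFD+STZ against Chow was above 0 in 2, Cyp4b1 and Cyp4f17, with a median of -0.48. For METTL3 against Chow it was above 0 in 4, with a median of 0.04. Cyp4f13 was at 5.39, 6.02 and 17.3 CPM in Chow, 3.13, 4.86, 3.83 and 5.6 CPM in HFD+STZ, and 4.15, 9.11, 4.53 and 5.82 CPM in METTL3 hearts. Its highest value was in Chow replicate 3, and its log2 fold change of -1.13 (SE 0.42) for HFD+STZ had an adjusted p of 0.332.

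Cyp2u1 also peaked in Chow replicate 3, at 8.65, 10.3 and 19.9 CPM in Chow, 6.93, 9.49, 9.13 and 9.80 CPM in HFD+STZ, and 6.89, 16.5, 7.70 and 10.6 CPM in METTL3 hearts. An antisense gene, 4930534D22Rik, overlaps its exons, and whether the counting used strand is not given, so their reads may be mixed. Cyp4v3 and Cyp4f16 were likewise highest in Chow replicate 3, at 11 and 9.63 CPM. Cyp2j6, whose epoxides of arachidonic acid are studied as vasoactive lipids, was at 7.05, 6.77 and 11.4 CPM in Chow, 9.72, 6.57, 10.4 and 6.57 CPM in HFD+STZ, and 11.8, 9.44, 8.46 and 12.3 CPM in METTL3 hearts. Its groups overlapped throughout. Cyp2j9, of the same subfamily, had a log2 fold change of 1.09 (SE 0.51, adjusted p 0.556) for METTL3 against HFD+STZ.

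Cyp27a1 led the sterol enzymes, at 19, 21 and 26.7 CPM in Chow, 14.8, 16.9, 22.1 and 18.1 CPM in HFD+STZ, and 13.1, 19.3, 14.7 and 15 CPM in METTL3 hearts. All but 1 METTL3 heart lay below the lowest Chow heart, and the log2 fold change of -0.52 (SE 0.20) had an adjusted p of 0.157. Cyp27a1 is also expressed by macrophages, and 6 macrophage markers summed to 201 to 386 CPM in Chow, 123 to 244 CPM in HFD+STZ and 71.5 to 138 CPM in METTL3 hearts. Of these markers, 2 of 6, Csf1r and C1qa, were called lower in METTL3 than in Chow hearts, where 3.2% of all genes were called in either direction. Their part in the Cyp27a1 values was not tested. Cyp39a1, Cyp7b1 and Cyp46a1, which hydroxylate oxysterols and cholesterol, were not called in any comparison.

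Cyp20a1 was at 12.2, 12.5 and 3.43 CPM in Chow, 11.5, 9.36, 8.71 and 11 CPM in HFD+STZ, and 13.1, 16.8, 15.9 and 12.2 CPM in METTL3 hearts. It was the single one of the 21 tested members whose METTL3 and HFD+STZ hearts did not overlap, where 9.57% of all genes did not (5.43% higher), and its log2 fold change of 0.51 (SE 0.32, adjusted p 0.661) did not pass. Cyp26b1, which degrades retinoic acid, ranged from 0.394 to 4.61 CPM in Chow, 2.01 to 13.2 CPM in HFD+STZ and 4.0 to 13 CPM in METTL3 hearts. Its log2 fold changes against Chow were 1.59 (SE 0.77, adjusted p 0.425) and 1.43 (SE 0.77, 0.303).

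**Figure D3:**
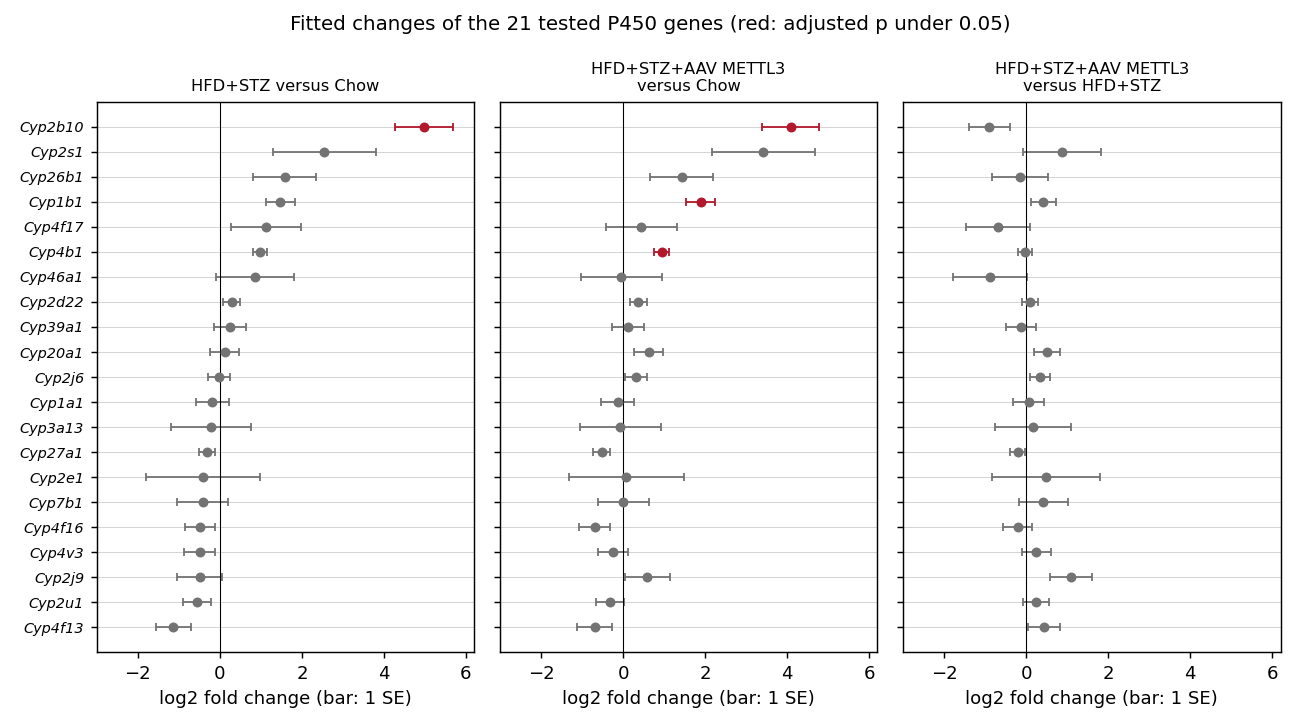
Fitted log2 fold change of the 21 tested P450 genes in each comparison, with bars of 1 SE and genes ordered by HFD+STZ versus Chow. Red points have an adjusted p under 0.05: Cyp2b10 in the first panel, Cyp2b10, Cyp4b1 and Cyp1b1 in the second, and none in the third.

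Across the tested members there was no common direction. For HFD+STZ against Chow, 10 of 21 log2 fold changes were above 0, as were 48.4% of those of all genes, and the median was -0.02 over the members and over all genes. At an unadjusted p under 0.05 there were 4 members, where 12.1% of all genes passed. Groups did not overlap for 5 members, Cyp2b10, Cyp2d22, Cyp2s1, Cyp4b1 and Cyp4f17, all higher in HFD+STZ, against 10.4% of all genes, or 5.52% counting higher ones only. Of these members, Cyp2b10 and Cyp2s1 met the minimum of the selection rule only through their treated hearts. The set may therefore be tilted toward such rises. For Cyp2s1 and Cyp4f17 the gap was narrow. The highest Chow heart was at 0.108 and 2.07 CPM, and the lowest HFD+STZ heart at 0.122 and 2.19 CPM. For METTL3 against Chow, 13 of 21 were above 0, where 49.2% of all genes were, and the median was 0.12 against -0.01 over all genes. There 5 members had an unadjusted p under 0.05, where 21.7% of all genes did, and 3 did not overlap, all higher, where 18.7% of all genes did not and 10.5% were higher. For METTL3 against HFD+STZ, 13 of 21 were above 0, where 49.6% of all genes were, the median was 0.16, and 0 members had an unadjusted p under 0.05, where 9.06% of all genes did. There DESeq2 called 45 genes and limma voom 395, with 0 members by either.

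A few liver-type members came almost wholly from the 2 hearts with the most albumin counts. Cyp3a11, the main drug-metabolising P450 of mouse liver, had 84 counts in METTL3 replicate 1, 13 in HFD+STZ replicate 1, 2 in Chow replicate 1 and 0 in the other 8 libraries. These 2 libraries held 98% of the counts of Cyp3a11, 96.2% of those of the fatty acid hydroxylase Cyp4a14, 95% of those of the coumarin hydroxylase Cyp2a5, and 92% of those of the epoxygenase Cyp2c29. For Cyp2b10 and Cyp4b1 that share was 12.8 and 17.1%. The 8 hepatocyte markers summed to 76.1 CPM in METTL3 replicate 1 and 22.8 CPM in HFD+STZ replicate 1, against 5.05 to 12.2 CPM elsewhere. Their part in the liver-type P450 counts was not tested, and these 4 genes, which were singled out after their values were seen, give no comparison between groups.

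**Figure D4:**
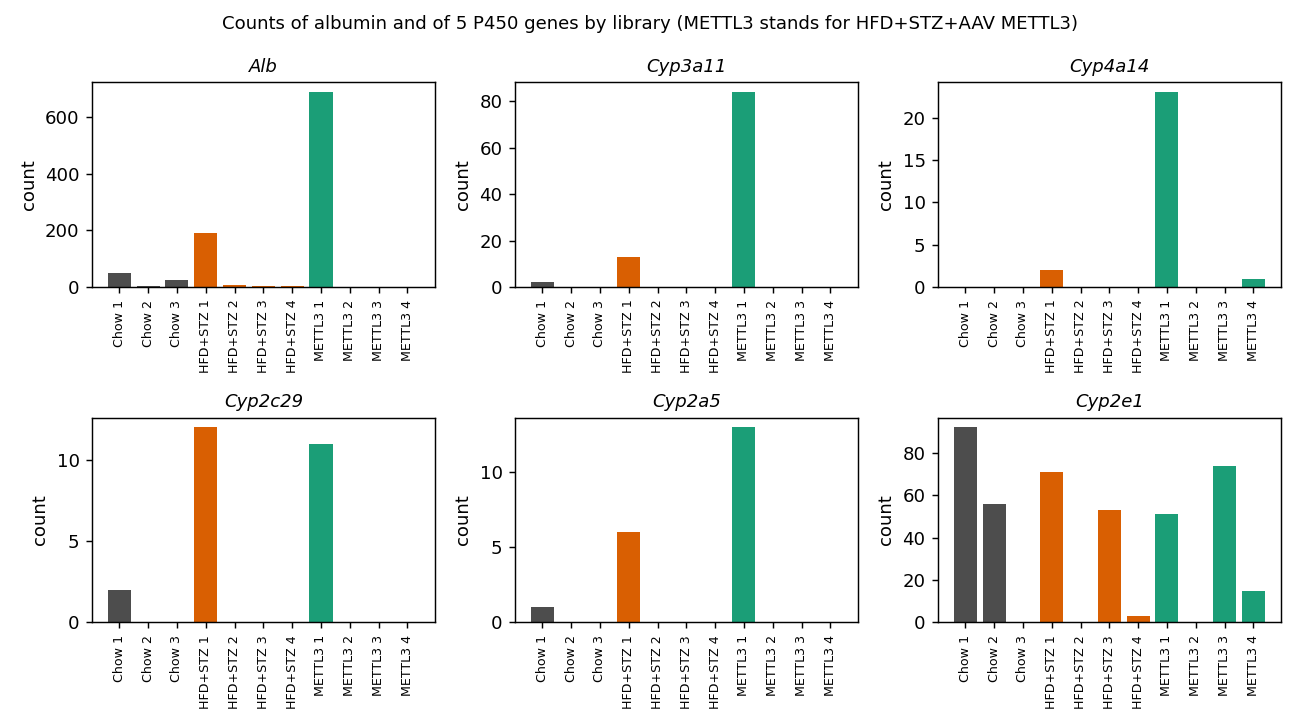
Counts of albumin (Alb) and of 5 P450 genes in each of the 11 libraries, 1 bar per library coloured by group, each panel with its own axis from 0. Cyp3a11, Cyp4a14, Cyp2c29 and Cyp2a5 appear almost only in HFD+STZ replicate 1 and METTL3 replicate 1, the 2 libraries with the most albumin, and Cyp2e1 follows another pattern.

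Cyp2e1, the ethanol-oxidising P450, was present or absent by heart and not by group, and it was singled out after its values were seen. It had 92, 56 and 0 counts in Chow, 71, 0, 53 and 3 in HFD+STZ, and 51, 0, 74 and 15 in METTL3 hearts. Every group thus held a heart at 0 or near it. Atrial Myl7 was at 5.23, 26.6 and 1.58 CPM in Chow, 35.4, 0.0608, 15.4 and 0.0609 CPM in HFD+STZ, and 0.157, 0, 19 and 0 CPM in METTL3 hearts. The 5 hearts with Myl7 above 5 CPM all had 53 or more Cyp2e1 counts, and METTL3 replicate 1 had 51 Cyp2e1 counts with little Myl7. In the same 5 hearts the atrial markers Myl4 and Sln stood at 10.3 to 52.3 and 1.30 to 11.3 CPM. In the other hearts they were at 0.806 to 2.49 and 0 to 0.627 CPM. The sum of all 4 atrial markers, Nppa included, did not follow Cyp2e1. It was highest in Chow replicate 3, at 136 CPM with 0 Cyp2e1 counts. There Myl7, Myl4 and Sln were at 1.58, 1.91 and 0 CPM, so the sum was mostly Nppa. It stood at 68.4 CPM in HFD+STZ replicate 4 with 3 counts and at 45.1 CPM in Chow replicate 1 with 92 counts. That sum ran from 45.1 to 136 CPM in Chow, 24.1 to 135 CPM in HFD+STZ and 19.4 to 88.8 CPM in METTL3 hearts. The 6 adipocyte markers summed to 4.17 to 10.8 CPM in Chow, 0.182 to 5.31 CPM in HFD+STZ and 0.0783 to 1.13 CPM in METTL3 hearts, with 0 to 5 of the 6 at 0 in a library. The 2 hearts with the most albumin counts, METTL3 replicate 1 among them, held 29.4% of the Cyp2e1 counts. The part of atrial, fat or liver tissue in the Cyp2e1 values was not tested.

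The partners and regulators of the P450 system were read from lists of genes that are no members. Of 9 tested redox partners, edgeR called 0 in any comparison, with 2, 2 and 1 at an unadjusted p under 0.05 for HFD+STZ against Chow, METTL3 against HFD+STZ and METTL3 against Chow. In that order, 12.1%, 9.06% and 21.7% of all genes passed the unadjusted threshold, and 0.168%, 0.0% and 3.2% were called. Por, the electron donor of microsomal P450 enzymes, was at 42.6, 39.5 and 34.4 CPM in Chow, 45.5, 65.2, 58.8 and 67.9 CPM in HFD+STZ, and 44.1, 31.2, 43.0 and 38.9 CPM in METTL3 hearts. HFD+STZ hearts were thus all above both other groups, with log2 fold changes of 0.61 (SE 0.19, adjusted p 0.245) against Chow and -0.59 (SE 0.17, adjusted p 0.353) for METTL3 against HFD+STZ, neither of which passed.

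Of 10 tested xenobiotic and lipid sensing regulators, 1 was called, Ahr, the receptor that drives Cyp1a1 and Cyp1b1. It rose in METTL3 against Chow hearts, where 3.2% of all genes were called, by a log2 fold change of 1.04 (SE 0.22, edgeR adjusted p 0.0329). Ahr was at 14.5, 14.4 and 13.6 CPM in Chow, 20.1, 15.1, 15.5 and 20.6 CPM in HFD+STZ, and 30.6, 32.9, 18.5 and 34.7 CPM in METTL3 hearts, and its METTL3 hearts were all above its Chow hearts. Of 4 tested AhR targets that are no P450 genes, 1 was called in METTL3 against Chow hearts. The median log2 fold change of the 4 was -0.29. The called one, Nqo1, a quinone reductase that NRF2 also drives, rose by 1.23 (SE 0.27, edgeR adjusted p 0.0347). Its Chow hearts stood at 30.5, 35.8 and 13.3 CPM, the lowest being Chow replicate 3, and its METTL3 hearts at 57.5 to 68.6 CPM. Tiparp at 0.39 (SE 0.30) and Ahrr at -0.96 (SE 0.72) were not called. Nr1i3, which encodes CAR, reached at most 0.732 CPM in any heart, and Nr1i2, which encodes PXR, at most 0.0783 CPM.

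Of 6 tested targets of CAR and PXR that are no P450 genes, 1 was called, Aldh1a1, a retinal dehydrogenase. It rose in METTL3 against Chow hearts, where 3.2% of all genes were called, by 0.76 (SE 0.18, edgeR adjusted p 0.0424). Aldh1a1 is also the single called gene of 10 tested in retinoid handling. Among 13 genes of haem synthesis and breakdown, the median log2 fold change in METTL3 against Chow hearts was -0.51. At an edgeR unadjusted p under 0.05, 7 were lower and 1 higher, where 21.7% of all genes passed in either direction. By adjusted p 1 was called lower and none higher. That gene, Blvrb, a biliverdin reductase, fell by 2.08 on the log2 scale (SE 0.39, adjusted p 0.0246). Its Chow hearts stood at 8.50, 9.62 and 25.3 CPM, the highest again Chow replicate 3, and its METTL3 hearts at 1.80 to 4.68 CPM. None of the 10 lists had a called gene in HFD+STZ against Chow or in METTL3 against HFD+STZ. In these comparisons 0.168% and 0.0% of all genes were called, so the absence of calls is no result about the lists.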

How the data were processed

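RNA of 11 samples of whole heart tissue was sequenced after ribosomal RNA depletion with a RiboZero kit and an NEB library kit, per the labels' protocols. The authors deposited 1 table of raw counts, whole numbers for each gene and heart. Tools named in the submitters' processing notes are FastQC and Salmon, with the mm10 build and no versions. The sources used here do not give how reads shared between genes were counted or whether strand was used. Gene lengths are the deposited table's own values. Groups and replicate numbers come from sample titles. Samples are called hearts here from their labelled source, but no label ties a sample to an animal, so p-values cover only the spread among these samples, possibly a technical one.

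Tests used edgeR 4.0.16 under R 4.3.3: TMM scaling, filterByExpr (minimum count 10, minimum total 15), group means of all 11 libraries in 1 model, the quasi-likelihood test and Benjamini-Hochberg adjustment over 14862 genes. Each SE was worked back from the test, as the size of the log2 fold change over the square root of the F value. Intervals of log2 fold changes are built on that SE, so they are approximate. They are at the 95% level and use the fit's prior and residual degrees of freedom together. CPM values use TMM library sizes. Depth of 13900531 to 16952639 counts leaves members of under 20 counts in a library imprecise. The procedure was tested on simulated data. Alternatives were DESeq2 1.42.0, limma 3.58.1 voom, other scalings and filters, a replicate block, the sample code range and leaving out libraries.

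The members, roles and gene lists were chosen with earlier results of these data known. Values in every library are given for members past the threshold in any comparison, for the 10 highest by mean CPM per kb, and for those with an unadjusted p under 0.05 and groups that do not overlap. Other members are given by range, and of the lists up to 4 genes by smallest p. Shared sequence was measured as stretches of 31 bases in GENCODE transcripts. Promoters come from RefSeq on GRCm38.p6.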

Additional observations from a re-analysis of the deposited data

Results flagged for a closer look

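Among 53 groups of 4 hearts with enough counts, 9 held a heart lying far from the other 3 by Dixon's test at the 95% level, which chance gives in about 1 in 20 groups. The flags concern 6 genes with few counts and Cyp26b1, and no heart was flagged for Cyp2b10, Cyp4b1 or Cyp1b1. In METTL3 replicate 1, Cyp3a11 stood at 6.58 CPM, Cyp4a14 at 1.8 CPM, Cyp2a5 at 1.02 CPM and Cyp2c29 at 0.862 CPM, far above the other METTL3 hearts. In HFD+STZ replicate 1, Cyp3a11 stood at 0.726 CPM, Cyp2c29 at 0.67 CPM and Cyp26a1, a retinoic acid hydroxylase, at 0.838 CPM, far above the other HFD+STZ hearts. Cyp26b1 was at 13 CPM in METTL3 replicate 2, against 4.0 to 5.47 CPM in the other METTL3 hearts. Cyp8b1, the sterol 12-alpha-hydroxylase of bile acid synthesis, was at 0.0609 CPM in HFD+STZ replicate 4, from 1 count, against 0.558 to 0.627 CPM in the other HFD+STZ hearts.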

How the results depend on the processing

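The number of called genes depended on the method, and 25, 475 and 0 genes were called for HFD+STZ against Chow, METTL3 against Chow and METTL3 against HFD+STZ. In that order, DESeq2 called 284, 1333 and 45 and limma voom 1954, 3078 and 395. For HFD+STZ and METTL3 against Chow, no filter gave 190 and 747, only the groups compared 0 and 54, the code range as a term 1 and 1, and leaving out both albumin-rich hearts (added after seeing the data) 145 and 104. A minimum count of 30 gave 45 for HFD+STZ. Leaving out single hearts gave 1 to 215 and 34 to 750. Called members for HFD+STZ against Chow, 1 in the fit reported, were 3 with DESeq2, voom, no filter or without the albumin-rich hearts, 2 with a minimum count of 30, 0 with only the groups compared or the code range, and 0 to 3 without single hearts. For METTL3 against Chow, 3 in the fit reported, they were 5 with voom, 0 with the code range and 0 to 3 without single hearts. For METTL3 against HFD+STZ they were 0 under all 24 alternatives. Cyp4b1 in METTL3 against HFD+STZ changed sign, to 0.037, 0.0199 and 0.0407, without HFD+STZ replicate 2, HFD+STZ replicate 3 or METTL3 replicate 1, within a range of -0.155 to 0.0407 over single hearts left out. The causes of these changes were not tested. The log2 fold changes of Cyp2b10, Cyp4b1 and Cyp1b1 against Chow stayed above 0 under all 23 alternatives.

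With the replicate number as a block, 2 genes and 0 members were called for HFD+STZ and 5 genes and 0 members for METTL3 against Chow. Libraries of different groups were also correlated after the mean of its group was taken from each gene's log CPM. These deviations correlated at -0.229 to 0.163 for the same replicate number (10 pairs). For other pairs they correlated at -0.189 to 0.22 (30 pairs). Hearts of the same number were thus no more alike, but so few pairs cannot exclude a pairing. Members with 0 to 20 counts per heart are limited by depth.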

Other observations

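Enzymes that work beside the P450 genes on the same substrates were read from lists chosen with earlier results known. Of 5 flavin monooxygenases, Fmo1, which oxidises nitrogen and sulphur compounds, rose in METTL3 against Chow hearts by a log2 fold change of 0.81 (SE 0.20, edgeR adjusted p 0.0476). Its level was 39.6 to 62.0 CPM in Chow, 62.8 to 77.2 CPM in HFD+STZ and 68.4 to 101 CPM in METTL3 hearts. Fmo2 had a log2 fold change of 1.64 (SE 0.42, edgeR adjusted p 0.0527), just outside the threshold. Its Chow hearts stood at 68.3, 60.2 and 18.1 CPM, the lowest being Chow replicate 3, and its METTL3 hearts at 118 to 190 CPM. Ephx2, the soluble epoxide hydrolase that breaks down P450 epoxides of arachidonic acid, averaged 221 ± 76.2 CPM (SD, n = 3) in Chow, 383 ± 93.1 CPM (SD, n = 4) in HFD+STZ and 410 ± 47.0 CPM (SD, n = 4) in METTL3 hearts. Its log2 fold change of 0.90 (SE 0.26) for METTL3 against Chow had an edgeR adjusted p of 0.0730. Of 9 epoxide hydrolases and arachidonic acid enzymes tested, 0 were called. In METTL3 against Chow 3.2% of all genes were called.

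Ptgis, Tbxas1 and Cyp51 encode P450-type enzymes whose names fall outside the rule, namely prostacyclin synthase, thromboxane synthase and lanosterol demethylase. All 3 had log2 fold changes below 0 for HFD+STZ against Chow, at -0.77 (SE 0.35), -1.23 (SE 0.44) and -0.78 (SE 0.22), and none was called (adjusted p 0.399, 0.325 and 0.210). The 28 Cyp genes with a summed count of 1 to 19 had 89 counts over 22 genes in METTL3 replicate 1 and 51 counts over 17 genes in HFD+STZ replicate 1, against 0 to 16 counts in the other libraries.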
